A study of Oryctolagus cuniculus with 12 samples.

Results

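Flavin-containing monooxygenases (FMO), UDP-glucuronosyltransferases (UGT) and cytochrome P450 enzymes (CYP) were examined in ventricles of fetal rabbit hearts. The members were all genes of the array annotation whose current symbol starts with FMO, UGT or CYP and a digit. There were 8 of them among the 591 genes with a named probe, read by 23 of the 1673 named probes: FMO1, FMO2, FMO4, FMO5, UGT1-6, UGT2B14, UGT2C1 and CYP8B1. The RefSeq gene table of the rabbit holds 59 genes with such symbols, so that 4 of 5 FMO genes, 3 of 9 UGT genes and 1 of 45 CYP genes were covered. The remaining ones were not analysed here, and 41930 probes of the table carry no gene name in the annotation used. The only P450 gene, CYP8B1, therefore does not stand for its family.

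The study compared 6 fetuses with intrauterine growth restriction (IUGR) with 6 control fetuses, all rabbits (Oryctolagus cuniculus) and numbered as 6 pairs of 1 IUGR and 1 control sample. Titles of the IUGR samples carry the word treatment. The agent or procedure, the fetal age, the strain and what the members of a pair have in common are not stated in the labels. Every heart gave 1 Cy3-labelled Agilent array. Nothing in the labels says that the samples came from separate litters, so p-values describe the spread between these pairs. Signals are in log2 units from 1.35 to 15.83, with a median probe level of 4.61, and signals of different probes are not comparable with each other as amounts of RNA. The heart label was checked with cardiomyocyte markers, which do not tell ventricle from atrium: the alpha myosin heavy chain MYH6, the calcium release channel RYR2 and the muscle creatine kinase CKM lay at percentiles 99.2, 97.4 and 99.8 of the probe levels. The 3 measured atrial markers, NPPA, SLN and GJA5, lay at percentiles 94.8, 57.5 and 75.0 and differed between IUGR and control by 0.76 ± 1.97, 0.44 ± 0.92 and 0.14 ± 0.34 log2 (SD, n = 6 pairs). NPPA ran from 9.49 to 15.79 over the 12 hearts, and what part of each sample was atrial was not tested.

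FMO enzymes sit in the endoplasmic reticulum and use NADPH and a bound flavin to put oxygen on the nitrogen or sulfur of drugs, food amines and other small molecules. UGT enzymes act after such a step, or on molecules that already carry a hydroxyl group, and attach glucuronic acid so that the product can leave in bile or urine. P450 enzymes are haem monooxygenases of drugs, steroids, fatty acids and bile acids. All 3 families are best known from liver, kidney, gut and lung, and the heart is a minor site. In bulk tissue, fewer cells that carry a transcript and less transcript per cell cannot be told apart.

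No member passed the test of IUGR against control. Per gene the probe with the highest mean over the 12 arrays was used, and differences are IUGR minus control as a mean ± SD over n = 6 pairs. Of the 8 members 4 were higher and 4 lower, from -0.17 to 0.18 log2, with a median of -0.01, against a median of 0.01 over all 43603 probes, of which 52.0% were higher. None of the 8 passed the adjusted threshold of 0.05 in limma with the pair as a block (0 of 43603 probes, 0% of the table), and none had an unadjusted p under 0.05 or 0.01, as 3.58% and 0.514% of all probes did. No member had 1 sign in all 6 pairs, as 2.25% of the probes did, and in each of the 8 the ranges of the 2 groups overlapped, as they did for all but 0.0505% of the probes. Probes of 4 members, FMO4, FMO1, UGT1-6 and UGT2C1, lay above the median probe level, and those of FMO2, FMO5, CYP8B1 and UGT2B14 lay below it.

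FMO4 is an FMO form whose own substrates are little known. Its single probe lay at percentile 67.5. In the IUGR hearts of pairs 1 to 6 it read 6.84, 7.20, 7.26, 6.90, 7.61 and 7.39, and in their control partners 6.81, 6.74, 7.01, 6.60, 7.47 and 7.48. Pairs 5 and 6 were the highest in both groups, and the pair means varied more (SD 0.32) than the differences within pairs (SD 0.20). FMO4 was higher in IUGR in 5 of 6 pairs, by 0.18 ± 0.20 (1.13-fold, 95% interval 0.943 to 1.36-fold), which did not pass (limma unadjusted p = 0.150, adjusted p = 0.982; exact two-sided sign-flip p = 0.0938, where the smallest p possible is 0.03125). The difference stayed between 0.12 and 0.24 whichever pair was left out.

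**Figure D1:**
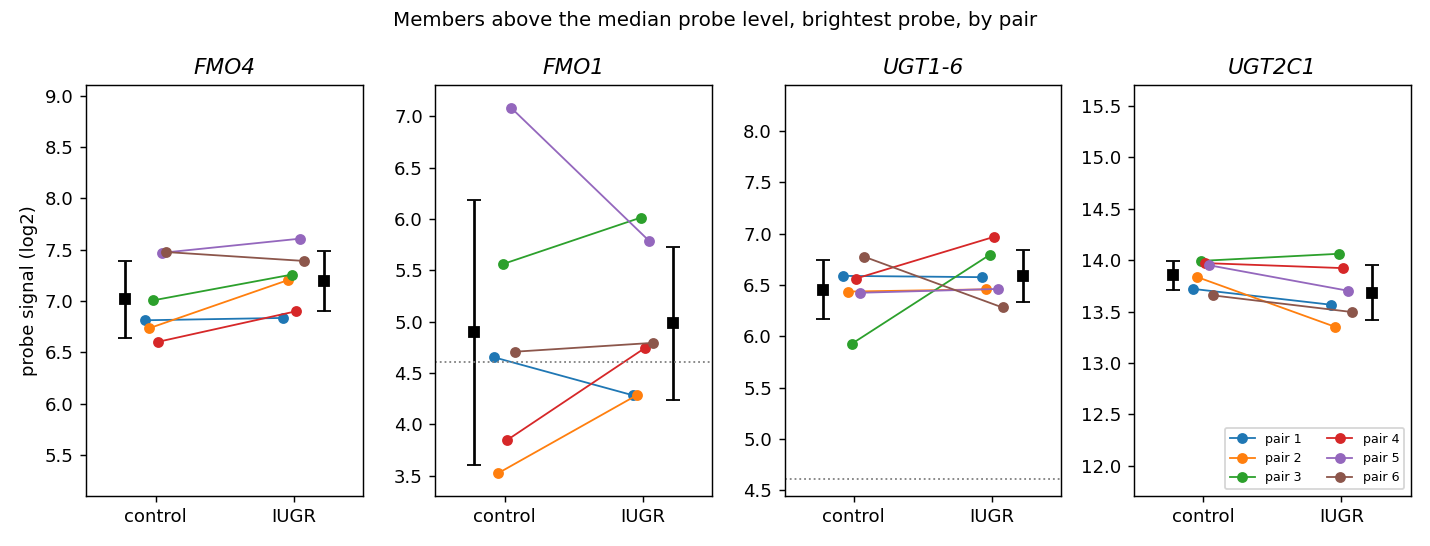
Log2 signal of the brightest probe of FMO4, FMO1, UGT1-6 and UGT2C1 in control and IUGR hearts, with a line joining each of the 6 pairs, black squares and bars for the mean ± SD of a group, and a dotted line at the median probe level (4.61) where it falls in the panel. Each axis spans the same number of log2 units; lines run in both directions for every gene, and those of FMO1 spread the most.

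FMO1, the main FMO of fetal liver in humans, follows FMO2 and precedes FMO4 in the order of protein-coding genes of the RefSeq assembly mOryCun1.1. Its brightest probe lay just above the middle of the table, at percentile 52.1. It read 4.29, 4.29, 6.02, 4.75, 5.79 and 4.80 in IUGR and 4.65, 3.53, 5.56, 3.85, 7.09 and 4.71 in control hearts of pairs 1 to 6. Pairs 3 and 5 were high in both groups. The range over the 12 arrays was 3.56 log2, and the pair means had an SD of 0.97. The difference of 0.09 ± 0.82 (4 of 6 pairs higher, 95% interval -0.61 to 0.78) was small against its spread, with -0.07 once pair 4 was left out and 0.37 once pair 5 was.

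The other probes of FMO1 repeated the order of the hearts only in part. Their differences between partners departed most from those of the brightest probe in pair 5. In the control heart of pair 5 the brightest probe read 7.09, the highest of the 12 arrays, while the second probe and the third both read 3.17. Between 2 and 4 log2 the median number of probes holding the same value was 699 on that array. The equal readings therefore do not show that the 2 probes agree. In the IUGR heart of that pair the 3 probes read 5.79, 6.19 and 5.35. The differences of that pair were accordingly -1.30, 3.02 and 2.18 by the 3 probes. Outside pair 5 the third probe had the sign of the brightest in every pair, and the second only in pairs 1, 2 and 4. Over the pairs the second probe gave 0.16 ± 1.54 and the third gave 0.70 ± 1.06 (5 of 6 pairs higher, limma unadjusted p = 0.0999, adjusted p = 0.982), and without pair 5 they gave -0.41 and 0.41. The remaining 3 probes lay at percentiles 1.21 to 23.6 and differed by -0.13 to 0.08. The mean of all 6 probes was 0.14.

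**Figure D2:**
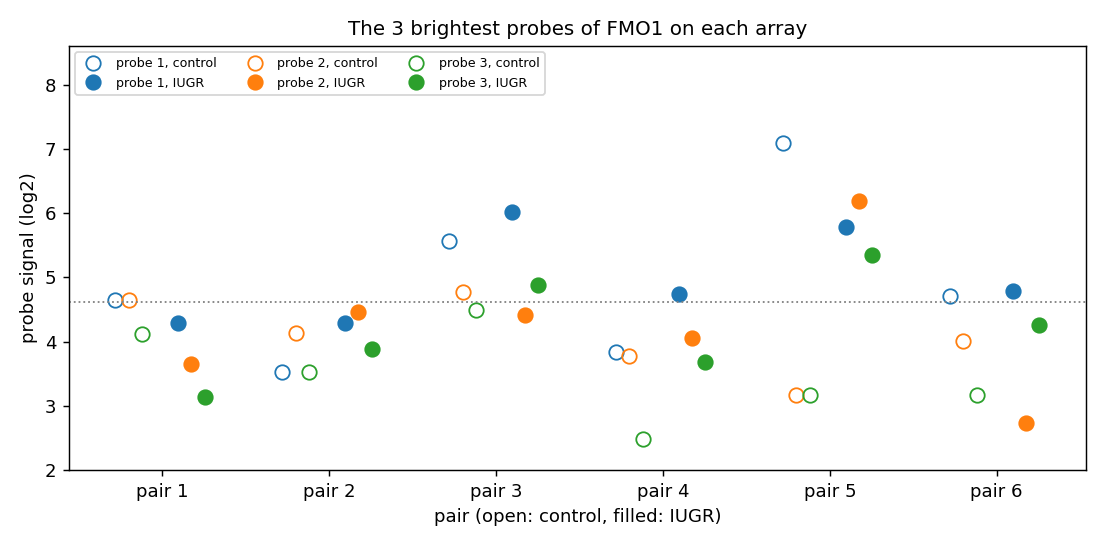
Log2 signal of the 3 brightest probes of FMO1 in each heart, by pair, with open circles for control, filled circles for IUGR, colours for the probes and a dotted line at the median probe level. In pair 5 the first probe is higher in the control heart (7.09 against 5.79), and the others are higher in the IUGR heart.

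FMO2 is the FMO of lung in the rabbit. Its 3 probes lay at percentiles 38.6, 13.7 and 10.1. The brightest ran from 2.85 through a median of 3.31 to 4.26 in IUGR and from 2.89 through 3.31 to 3.94 in control hearts. On this probe the highest value of each group came from pair 3, and on the other probes from other pairs. The difference was -0.01 ± 0.28 (4 of 6 pairs higher, 95% interval -0.32 to 0.29), and the other probes gave 0.04 ± 0.13 and -0.07 ± 0.44. Of 2 measured lung epithelium markers, SFTPB, a surfactant protein, lay at percentile 93.3 with 10.33 to 12.51 over the 12 arrays, while SCGB1A1, a secretory protein of airway cells, lay at percentile 31.8. SFTPB differed by -0.27 ± 0.72 and SCGB1A1 by 0.29 ± 1.01, and their part in the values of FMO2 was not tested.

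FMO5 inserts oxygen beside the carbonyl group of ketones rather than on nitrogen or sulfur and is known from liver and gut. Its brighter probe, at percentile 37.4, ran from 2.47 through 3.22 to 3.95 in IUGR and from 2.73 through 3.37 to 3.91 in control hearts. The difference was -0.03 ± 0.46, with 4 of 6 pairs higher in IUGR, and 0.13 without pair 2. The other probe was one of the dimmest of the table, at percentile 2.19. It was lower in IUGR in 5 of 6 pairs, with -0.48 ± 0.54 (limma unadjusted p = 0.0531, adjusted p = 0.982). In pairs 1, 3 and 6 the 2 probes had opposite signs. On the dimmer probe the IUGR hearts read 2.00, 1.93, 1.84, 2.73, 2.32 and 1.86 and their control partners 2.60, 2.81, 2.00, 2.33, 2.82 and 2.99. The ranges of the groups overlapped, and the mean of both probes was -0.25.

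UGT1-6, also called UGT1A6, conjugates small phenols. UGT1 forms are known to join a first exon of their own to exons they all share, and which exons the probes lie in was not determined, so a probe may read more than 1 UGT1 form. Both probes lay above the median level, at percentiles 62.9 and 59.9. The brighter read 6.57, 6.46, 6.79, 6.97, 6.46 and 6.28 in IUGR and 6.59, 6.43, 5.93, 6.56, 6.42 and 6.77 in control hearts of pairs 1 to 6. In pairs 1, 2 and 5 the partners were within 0.04 log2 of each other, in pairs 3 and 4 the IUGR heart was higher by 0.87 and 0.41, and in pair 6 it was lower, with a difference of -0.49. The mean was 0.14 ± 0.46 (4 of 6 pairs higher, 95% interval -0.29 to 0.56; limma adjusted p = 0.982). The second probe gave 0.05 ± 0.38. It had the sign of the first in pairs 4, 5 and 6, with 0.65, 0.25 and -0.46. In pairs 1, 2 and 3 it had the other sign, with 0.04, -0.05 and -0.16. Without pair 3 the difference of the brighter probe was -0.01.

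UGT2C1 and UGT2B14 belong to the UGT2 family, whose members conjugate steroids, bile acids and drugs. UGT2C1 had 1 probe, at percentile 98.2 of all probe levels. It was named by its array symbol, since its accession is not a RefSeq transcript, and no second probe was available as a check, so whether it reads UGT2C1 alone was not tested. It read 13.57, 13.35, 14.06, 13.92, 13.70 and 13.50 in IUGR and 13.72, 13.84, 13.99, 13.97, 13.95 and 13.66 in control hearts of pairs 1 to 6. All 12 hearts thus lay within 0.71 log2 of each other. UGT2C1 was lower in IUGR in 5 of 6 pairs, with a difference of -0.17 ± 0.19 (0.888-fold, 95% interval 0.741 to 1.06-fold), which did not pass (limma unadjusted p = 0.164, adjusted p = 0.982; exact two-sided sign-flip p = 0.0938). The SD of its differences was close to the median SD, 0.20, of the 447 probes within 0.5 log2 of its level. Leaving out pair 3, the pair in which it was higher in IUGR, gave -0.22, and leaving out pair 2 gave -0.11.

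The 2 probes of UGT2B14 lay low, at percentiles 17.4 and 4.11. The brighter read 2.78, 3.09, 2.17, 2.49, 3.57 and 2.21 in IUGR and 3.66, 2.41, 2.97, 2.72, 2.43 and 2.10 in control hearts. The pairs went 3 each way and the mean difference was 0.003 ± 0.81, with a 95% interval from -0.68 to 0.69. The second probe gave -0.23 ± 0.99.

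**Figure D3:**
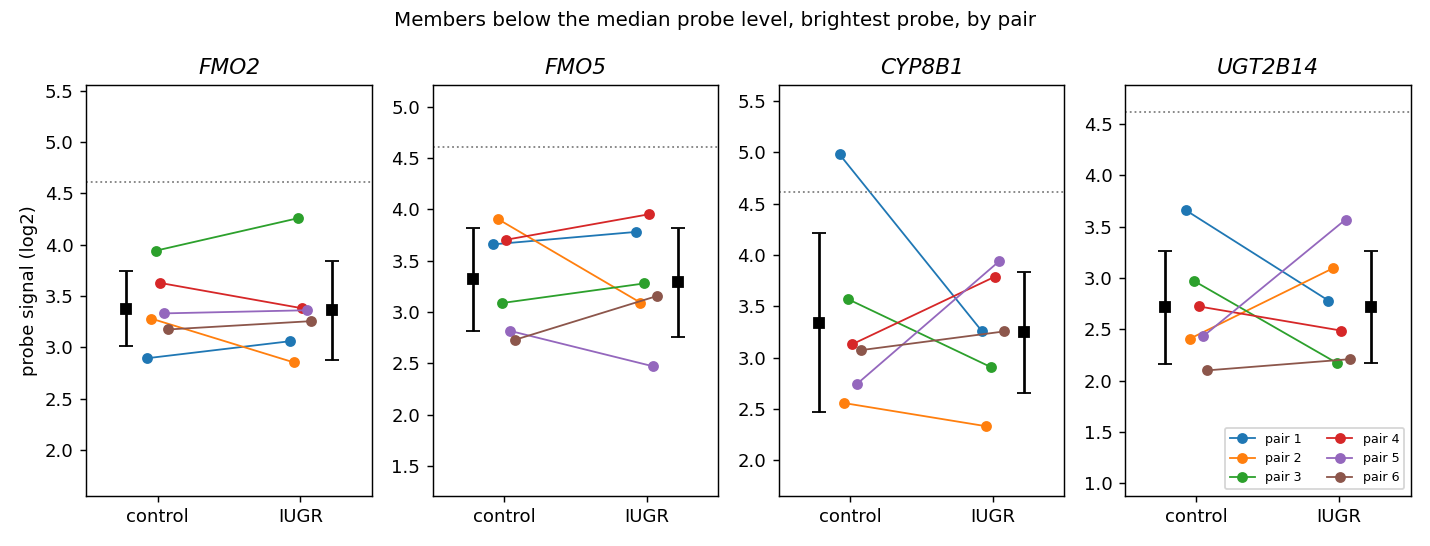
Log2 signal of the brightest probe of FMO2, FMO5, CYP8B1 and UGT2B14 in control and IUGR hearts, drawn as in the plot of the members above the median level. All but 1 of these values, CYP8B1 in the control heart of pair 1 (4.98), lie below the median probe level of 4.61.

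CYP8B1, the sterol hydroxylase that steers bile acid synthesis in liver towards cholic acid, had 6 probes, all below the median level at percentiles 7.79 to 37.2. The brightest read 3.25, 2.33, 2.91, 3.79, 3.94 and 3.25 in IUGR and 4.98, 2.56, 3.57, 3.13, 2.74 and 3.07 in control hearts. The pairs went 3 each way, the difference was -0.10 ± 1.03 (95% interval -0.95 to 0.76), and it turned to 0.23 without pair 1. Of the 6 probes, 2 were higher and 4 lower in IUGR. The fifth was higher by 0.80 ± 0.68 in 5 of 6 pairs (limma unadjusted p = 0.0145, adjusted p = 0.982; exact two-sided sign-flip p = 0.0625). It was the only one of the 23 probes with an unadjusted p under 0.05 (4.35% of them, against 3.58% of all probes), and its largest difference, 1.96, came from pair 5. The other 5 probes of CYP8B1 differed by -0.25 to 0.06, and the mean of all 6 was 0.04.

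**Figure D4:**
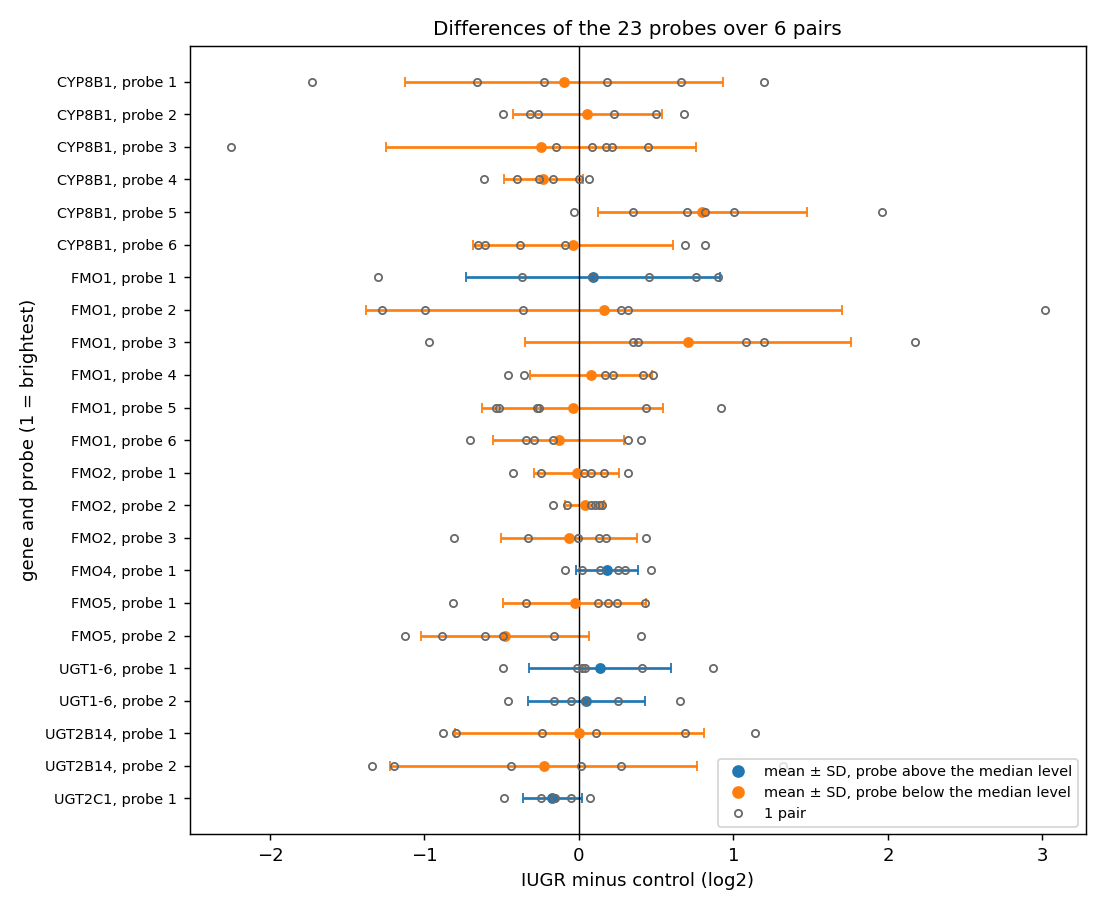
IUGR minus control (log2) for each of the 23 probes, with small open circles for the 6 pairs, filled circles and bars for the mean ± SD, blue for the 5 probes above the median level and orange for the 18 below it. The bars of FMO4 and UGT2C1 are among the shortest, and the probes of CYP8B1 and of FMO1 spread to both sides of 0.

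Markers of hepatocytes, cells in which these families are abundant, were read on the same arrays. Of the 21 markers listed 7 were measured, with 2 higher in IUGR, 5 lower and 0 called, and AHSG, HPX and TF lay above the median probe level. Their mean level ran from 4.19 to 5.60 in IUGR and from 4.52 to 7.04 in control hearts, and the highest belonged to the control heart of pair 6, with AHSG at 11.74 and ITIH3 at 7.12. On that array the brightest probes of FMO4 and UGT1-6 read 7.48 and 6.77, the highest of the 6 control values, and those of FMO5, UGT2B14 and UGT2C1 read 2.73, 2.10 and 13.66, the lowest. FMO1 (4.71), FMO2 (3.17) and CYP8B1 (3.07) lay between. CYP8B1 had its highest value, 4.98, in the control heart of pair 1. AHSG, HPX and TF read 10.38, 5.86 and 9.19 there, and APOB, ITIH3, SERPINF2 and VTN read 2.04, 2.77, 3.16 and 2.15. The mean of the 7 markers on that array was 5.08. In the IUGR hearts of pairs 3 and 6 AHSG read 10.14 and 10.24. The IUGR heart of pair 3 had the highest IUGR values of FMO1 (6.02), FMO2 (4.26) and UGT2C1 (14.06) and the lowest of UGT2B14 (2.17). FMO4 (7.26), FMO5 (3.28), UGT1-6 (6.79) and CYP8B1 (2.91) lay between. The IUGR heart of pair 6 had the lowest IUGR value of UGT1-6 (6.28), and the other members lay between, with CYP8B1 at 3.25. In the control heart of pair 2 APOB read 8.07, against 2.04 to 2.82 in the other controls. That heart had the highest control value of FMO5 (3.91) and the lowest of CYP8B1 (2.56) and FMO1 (3.53). The part of hepatocyte RNA in the values of the members was not tested.

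Other genes of the pathway were read from a list of 76 partners, of which 17 had a named probe, 12 higher and 5 lower in IUGR (70.6% higher, against 52.0% of all probes) with a median of 0.06. None passed the adjusted threshold, and 2 (11.8%) had an unadjusted p under 0.05, as 3.58% of all probes did. Of the 17 partners 10 lay above the median probe level, 7 of them higher and 3 lower in IUGR. These included enzymes that act beside or after these families. The hydrolase EPHX1, which opens epoxides, differed by 0.10 ± 0.38. The glutathione transferase GSTM2 differed by -0.20 ± 0.52 and the membrane-bound glutathione enzyme MGST3 by 0.25 ± 0.22. The alcohol dehydrogenases ADH5 and ADH1A differed by 0.10 ± 0.10 and -0.09 ± 0.47. ALDH1A1, CBR1 and TPMT differed by 0.29 ± 0.78, 0.06 ± 0.42 and -0.09 ± 0.60. Among the regulators, the dioxin receptor AHR differed by 0.03 ± 1.02 and its partner ARNT by 0.06 ± 0.32. NR1I2, the drug-sensing pregnane X receptor, lay low at percentile 11.7 and differed by 0.22 ± 0.25. The 2 partners with an unadjusted p under 0.05 were the steroid reductase AKR1D1 (0.70 ± 0.41) and the sulfotransferase SULT2A1 (0.83 ± 0.92). AKR1D1 lay at percentile 65.1 and SULT2A1, below the median level, at percentile 34.8. Without pair 5 their differences were 0.60 and 0.49. Of the 3 probes of AKR1D1 and the 5 of SULT2A1 only the brightest was read.

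The precision depended on the level. The median SD of the differences within pairs was 0.30 log2 in the upper part of the probe levels and 0.70 below the median level. Between 2 and 4 log2, where most of the dim probes of these genes lie, an array held only 40 to 61 distinct values. Counted over the probes in that range, the median number of probes holding the same value was 604 to 908. For FMO4 and UGT2C1 the 95% intervals reached from -0.08 to 0.45 and from -0.43 to 0.09 log2. For CYP8B1, UGT2B14 and FMO1 a difference of 0.5 log2 in either direction was within the interval. The members did not all follow their level: FMO1 lies above the median. FMO2 and FMO5, below it, had intervals of -0.32 to 0.29 and -0.46 to 0.40, and UGT1-6, above it, -0.29 to 0.56.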

How the data were processed

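Total RNA of 12 ventricles, 500 ng each with RNA integrity numbers of 9.3 to 9.9, was labelled with Cy3 and hybridised to 1-colour Agilent arrays, per the labels' protocols. The deposited values are log2 probe signals that the authors produced by RMA (no version is named in the submitters' processing notes); base 2 and a shared distribution (sorted values within 0.13 log2) were inferred from the values. Scanner, background method and probe filters are not stated in the labels. Detection flags were not used. Values were analysed as deposited, without a filter. Array symbols were updated through RefSeq accessions (7 members) or symbols (1 member), and each gene was read by the probe of highest mean.

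All 43603 probes were fitted with limma 3.58.1 in R 4.3.3 with the pair as a fixed block, two-sided, with Benjamini-Hochberg adjustment over all probes. Single values also had an exact test over the 64 sign changes of the 6 pairs. The design text calls the samples paired; partners' deviations from their group means had correlations of 0.129 to 0.254, and all 6 IUGR and 6 control arrays correlated best with their partner. The fit was tested on simulated data. Every member was named; other genes came from lists of partners and cell type markers. The members and lists were chosen with earlier results of these data known. No sequences are shown. Precision is limited by the number of arrays, with a median standard error of 0.137 log2 above and 0.256 below the median level. Alternatives were no block, 1 pair left out, an intensity trend with robust prior, probes above the median level, array centring, a second quantile normalisation, the mean of all probes and a threshold of 0.10.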

Additional observations from a re-analysis of the deposited data

Results flagged for a closer look

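Each of the 23 probes was screened with Dixon's test in each group, 46 groups in all, of which chance gives about 2.3 with a sample apart. There was 1: the dimmest probe of FMO2 read 3.66 in the control heart of pair 2, with the other controls at 2.11 to 2.56. Its difference was -0.07 over 6 pairs and 0.08 without pair 2. None of the probes used for the 8 members had such a sample.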

How the results depend on the processing

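No member passed the adjusted threshold under any of the alternatives run, also at a threshold of 0.10, and the lowest adjusted p of a member was 0.897. The fit without the replicate block changed no call and lowered the probes at an unadjusted p under 0.01 from 224 to 111; an intensity trend with robust prior gave 117 and the probes above the median level 104, where fewer probes are counted, and leaving out 1 pair gave 192 to 317. FMO4 and UGT2C1 kept their sign in the 8 alternatives each that can move their difference; the other 4 leave it as it is by construction. The trend with robust prior gave UGT2C1 an unadjusted p of 0.0469 (adjusted p = 0.976). Over the 8 members, 15 of the 70 differences that an alternative could move turned their sign. When 1 pair was left out, CYP8B1 ran from -0.35 to 0.23, FMO1 from -0.074 to 0.37, FMO2 from -0.080 to 0.069, FMO5 from -0.12 to 0.13, UGT1-6 from -0.0082 to 0.26, UGT2B14 from -0.22 to 0.18 and the median of the members from -0.025 to 0.17 (highest without pair 1). The mean of all probes gave 0.041 for CYP8B1, -0.11 for UGT2B14 and -0.25 for FMO5 (-0.03 with its brighter probe), and a second quantile normalisation gave 0.0004 for FMO2. With only probes above the median level, 1 of 4 members was lower in IUGR instead of 4 of 8, since 4 members leave the count. For the remaining shifts the cause was not tested. Probes below the median level limit what can be read from FMO2, FMO5, CYP8B1 and UGT2B14.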
